A study of Homo sapiens with 4 samples.

Results

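The cells described here were MCF10A cells at the mesenchymal end of an axis of gene expression, which is not a place in the patch. In each of the 4 plates, cells were ordered by the difference between the mean log-normalized expression of 5 mesenchymal genes (FN1, VIM, EMP3, TPM2 and SNAI2) and that of 5 epithelial genes (CDH1, EPCAM, CD24, AP1M2 and CLDN7). The highest 25% of each plate were selected on this measured value and gave 287 members of 1146 cells, 73, 68, 73 and 73 in low-resolution replicates 1 and 2 and high-resolution replicates 1 and 2. Values for the 4 plates are given in this order throughout. The members were compared with the 571 cells of the middle 50% of the same plates, called the middle group, and the 288 cells below them, the lowest group, are given where the rest of the axis matters.

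The epithelial-to-mesenchymal transition (EMT) is a change of cell programme in which E-cadherin, keratins and apical junction proteins are lowered, vimentin and fibronectin are made instead, and cells become motile. Transcription factors of the SNAI, ZEB and TWIST families repress epithelial genes through E-box sequences in their promoters, while GRHL2, OVOL1, OVOL2 and the splicing factors ESRP1 and ESRP2 hold the epithelial state. In mammary epithelium, basal cells express keratins 5 and 14 and some mesenchymal genes even at rest, and cells can stop between the epithelial and the mesenchymal end.

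MCF10A is an untransformed human breast epithelial line, here with a GFP-tagged histone. All 4 patches were seeded as circles, cultured for 6 days and phototagged by region before sorting. In 2 patches (low resolution) the regions were 3 rings of 1000 to 1500 μm, and in 2 patches (high resolution) they were the outermost 250 μm, the 250 μm next to it and the inside. Light tagged the outer and the next region and left the inner one untagged, and the bands differed between the experiments. Which band a well came from was not analysed here. Each patch filled 384 wells and was read by SORT-seq, in which unique molecular identifiers (UMIs) mark single transcripts. The plates held 11709628, 12203397, 13211394 and 14992348 transcripts. Between 271 and 293 wells per plate passed the limits of 2000 to 9000 features and under 40% mitochondrial counts. By the file names, low-resolution replicate 1 did not share its flow cell with the remaining 3 plates, which shared one. Well numbers, and so cell barcodes, are reused between plates: 199 to 231 numbers passed in both plates of a pair, and cells with the same number correlated across genes about as well as cells with other numbers (median r of 0.774 to 0.819 against 0.767 to 0.806).

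The 10 genes that chose the members are described without a test. Levels are in CPM, transcripts per 1000000 in the summed cells of each plate and group, scaled by TMM, which aligns the bulk of genes between sums. FN1, which encodes fibronectin, was at 1466, 1343, 1961 and 1789 CPM in the members and 222, 166, 683 and 579 CPM in the middle group. VIM (vimentin) was at 263, 258, 384 and 513 CPM against 20.6, 7.91, 74.8 and 54.0 CPM, and SNAI2, a repressor of epithelial genes, at 181, 199, 393 and 408 CPM against 59.1, 65.2, 202 and 201 CPM. In the other direction, CDH1 (E-cadherin) was at 6.61, 5.19, 2.30 and 1.77 CPM in the members against 69.5, 71.8, 32.4 and 37.9 CPM, and EPCAM at 6.61, 9.18, 6.91 and 6.20 CPM against 120.4, 135, 64.0 and 92.6 CPM. Groups did not overlap for any of these 5 genes except SNAI2, whose members in the low-resolution plates lay below the middle group of the high-resolution plates. These genes chose the cells, so their separation was favoured by the choice and is no result of its own. CD24, a surface glycoprotein, kept 316–391 CPM in the members. After each cell was thinned to 10000 UMIs, 97.3% to 100.0% of the members had a UMI of FN1 and 58.9% to 87.7% one of VIM, while 1.37% to 5.97% had one of CDH1 and 2.74% to 7.46% one of EPCAM, against 64.8% to 79.2% and 80.6% to 83.8% of the lowest group.

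**Figure D1:**
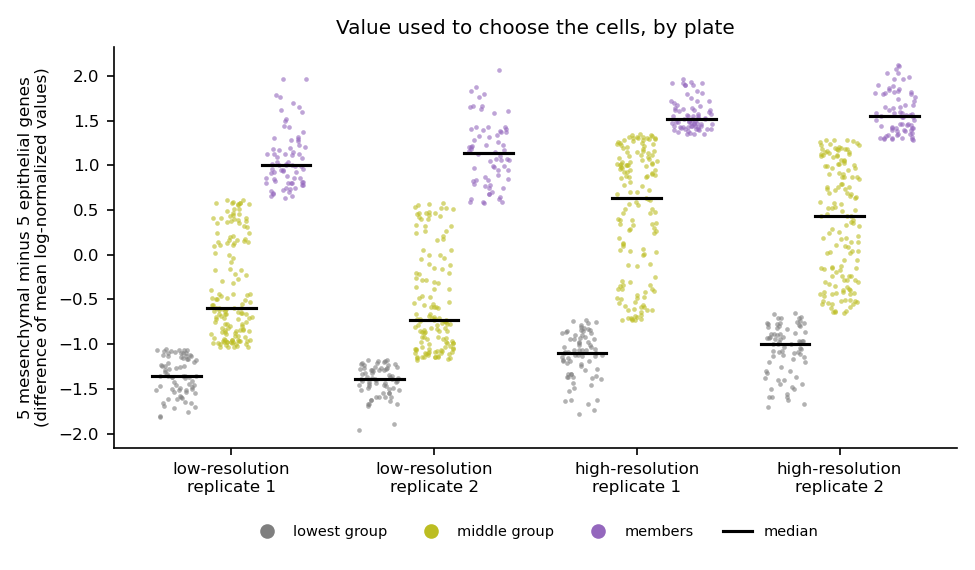
The value that chose the cells (y axis, difference of mean log-normalized expression) for each of the 1146 cells by plate (x axis), coloured by state, with a bar at the median of each state. The members' median was 1.00, 1.14, 1.52 and 1.55, and the middle group reached much higher in the high-resolution plates.

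The threshold has no natural border. The lowest member and the highest cell of the middle group had values of 0.637 against 0.615, 0.580 against 0.574, 1.350 against 1.350 and 1.286 against 1.285. The medians of the middle group were -0.592, -0.730, 0.633 and 0.431, so the gap from the middle group to the members was 1.59, 1.87, 0.886 and 1.12. The members are a fixed share of each plate, and those of the high-resolution plates lay further along the axis than those of the low-resolution plates. With 1 threshold for all plates, 31 of 291, 41 of 271, 112 of 291 and 103 of 293 cells would have been members. Choosing the members by the 5 mesenchymal genes alone kept 84.9% to 94.1% of them, and choosing by the 5 epithelial genes alone kept 61.6% to 83.8%.

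Markers of other cell types were counted beside these. Of the 10 fibroblast and stromal markers, LUM was not listed, COL3A1 and THY1 had no UMI in any member, and COL1A2, PDGFRA and PDGFRB had at most 4 UMIs per plate. DCN was not tested and had 1, 4, 8 and 50 UMIs in the members against 0, 0, 0 and 1 in the middle group. Of the 50 UMIs in high-resolution replicate 2, 45 were in 1 cell. COL1A1, the main collagen of fibroblasts, was at 4.04, 5.19, 11.1 and 9.15 CPM in the members against 6.79, 6.33, 6.56 and 8.69 CPM in the middle group and did not pass the test (adjusted p = 0.925). FAP, a fibroblast activation protease, was at 15.1, 9.58, 15.7 and 14.8 CPM in the members against 2.20, 2.37, 11.2 and 11.7 CPM in the middle group (log2 fold change 1.11 ± 0.33, edgeR adjusted p = 0.0274). Its levels overlapped between the groups, and with POSTN 2 of the 3 tested stromal markers were higher (median 1.11). Their part in the results was not tested. The list summed to 131, 167, 346 and 363 CPM in the members, most of it POSTN, against 10.8 to 148 CPM in the middle group. VWF and CDH5 of the endothelial list and CD3E of the leukocyte list had no UMI in the members, and the leukocyte gene PTPRC had 0, 1, 1 and 4 UMIs. Endothelial markers summed to 13.7 to 26.1 CPM in the members and 12.6 to 22.4 CPM in the middle group, nearly all of it PECAM1. Leukocyte markers summed to 15.1 to 48.5 CPM in the members and 23.9 to 51.0 CPM in the middle group, mostly CD14 and CD68, and to 39.5 to 89.7 CPM in the lowest group. Of the 2 tested leukocyte markers, 1 was lower in the members and 0 were higher. KRT5, a basal mammary keratin, was still at 1158, 1216, 1234 and 1278 CPM in the members but lower than in the middle group. Of 8 tested basal mammary markers, 3 were lower, KRT5 among them, and 1 was higher. The list of 9 summed to 2813, 2531, 2893 and 2784 CPM in the members against 3771, 3703, 4486 and 4606 CPM in the middle group.

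The first question was which other genes set the members apart from the middle group of their own patch. Many genes of the matrix, of protease control and of the cytoskeleton were higher in the members, and many genes of tight junctions, desmosomes, keratin filaments and epithelial transcription were lower. Of 10622 genes tested outside the 10 of the rule, 1071 (10.1%) were higher and 1100 (10.4%) lower in the members by edgeR's quasi-likelihood test on sums per plate with the plate as a block, at an adjusted p under 0.05 after Benjamini-Hochberg adjustment. Of these 2171 genes, 2082 had the same sign in all 4 plates. Cells were ordered on genes measured in the same libraries, so genes that vary together with those 10 had to differ, and the test asks how well the size of that difference repeats over 4 plates. The counts were 623 higher and 661 lower without low-resolution replicate 2, and 665 and 714 without low-resolution replicate 1.

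**Figure D2:**
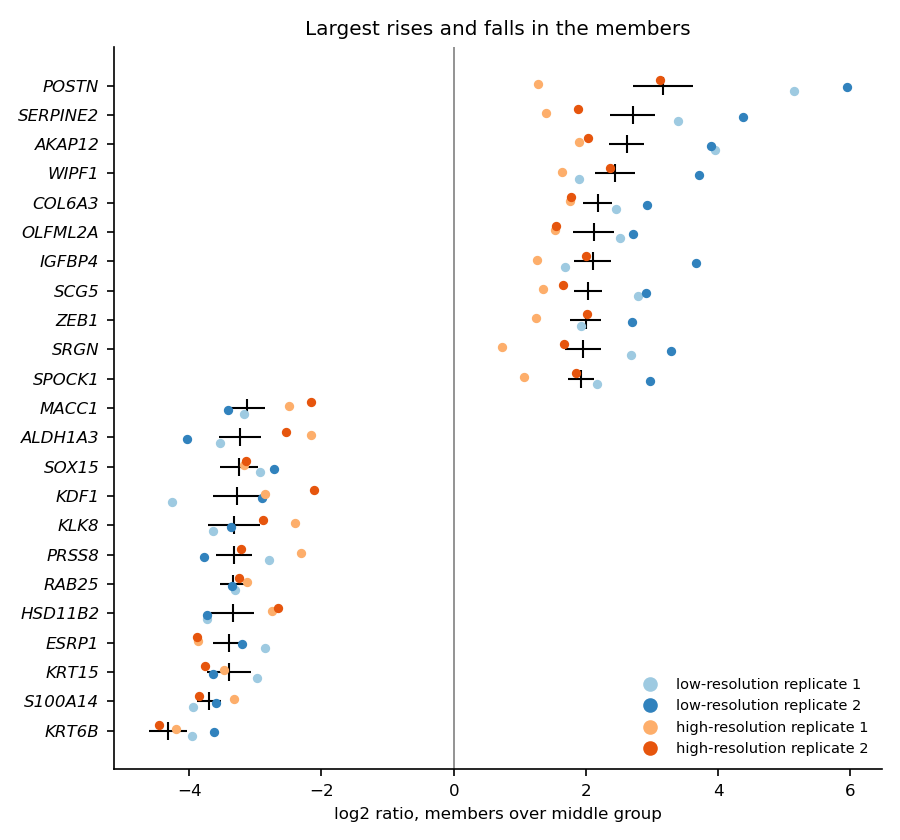
Log2 ratio of CPM in members over the middle group of the same plate (x axis) for the named genes among the largest rises (11 genes) and largest falls (12 genes, y axis). Coloured points are the 4 plates, with 0.5 CPM added to both levels, and black marks are the edgeR log2 fold change with its standard error. All points lie on the side of the fold change, and for most rises the low-resolution plates lie further from 0 than the high-resolution plates.

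The largest rises were mainly in secreted and matrix proteins. POSTN encodes periostin, a matrix protein that binds integrins. Its level was 103, 153, 313 and 317 CPM in the members, 2.40, 1.98, 129 and 36.1 CPM in the middle group and 1.28–6.22 CPM in the lowest group. The members of each plate were above the middle group of every plate except that the middle group of high-resolution replicate 1 lay above the members of low-resolution replicate 1. The log2 fold change was 3.16 ± 0.45 (SE, n = 4 plates, edgeR adjusted p = 0.000207). Members were uneven in this gene: after thinning, 24.7%, 38.8%, 67.6% and 68.5% of members had a UMI of it, against 0% to 30.3% of the middle group and 0% to 7.04% of the lowest group.

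SERPINE2, an inhibitor of serine proteases such as thrombin, was among the largest rises. It was at 1027, 1404, 1587 and 1626 CPM in the members and 97.6, 66.8, 599.9 and 441 CPM in the middle group, so the groups did not overlap, with a log2 fold change of 2.704 ± 0.34 (edgeR adjusted p = 8.44e-05). A UMI of SERPINE2 was found in 88.1% to 100.0% of thinned members.

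AKAP12, a scaffold that anchors protein kinase A, was at 99.9, 42.3, 131 and 169 CPM in the members against 5.99, 2.37, 34.9 and 41.0 CPM in the middle group, a log2 fold change of 2.62 ± 0.27. The actin regulator WIPF1 was at 8.08, 11.2, 15.4 and 21.0 CPM against 1.80, 0.395, 4.61 and 3.66 CPM (2.44 ± 0.30) and had almost no UMI in the lowest group. COL6A3, a collagen VI chain, rose from 1.78–8.41 CPM to 13.2–29.8 CPM, and OLFML2A, a secreted glycoprotein, from 1.20–4.75 CPM to 9.19–14.8 CPM. Further rises by the rule were IGFBP4, which binds insulin-like growth factors (2.10 ± 0.28), the neuroendocrine chaperone SCG5 (2.03 ± 0.21), the proteoglycans SRGN (1.96 ± 0.27) and SPOCK1 (1.93 ± 0.20), and ZEB1. WIPF1, COL6A3, OLFML2A and IGFBP4 are low genes, found in 5.97% to 22.5% of the thinned members of a plate. ZEB1, a repressor of CDH1, was at 16.5, 15.6, 19.2 and 14.8 CPM in the members, 3.99, 1.98, 7.80 and 3.26 CPM in the middle group and 1.65, 0.855, 0.982 and 0.706 CPM in the lowest group, and the groups did not overlap (2.00 ± 0.24, edgeR adjusted p = 4.45e-05).

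The largest falls were in epithelial keratins, serine proteases and regulators of epithelial splicing and transport. KRT6B, a keratin of activated keratinocytes, was at 3.31, 3.99, 3.84 and 4.13 CPM in the members against 58.9, 55.2, 79.4 and 102 CPM in the middle group and fell by 4.32 ± 0.29 on the log2 scale (edgeR adjusted p = 3.39e-07). Its sequence is close to that of KRT6A and KRT6C, so reads may have been split between them. The calcium-binding protein S100A14 was at 23.5, 39.1, 21.9 and 19.2 CPM against 369, 478, 224 and 283 CPM and fell by 3.70 ± 0.18 on the log2 scale. A UMI of it remained in 15.1% to 23.3% of thinned members against 49.3% to 81.2% of the middle group. No member sum reached the level of any middle sum for these 2 genes. KRT15, a keratin of basal epithelium, fell by 3.40 ± 0.33 and was at 179, 113, 31.5 and 42.2 CPM in the members.

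ESRP1, which sets the epithelial splice forms of many transcripts, was at 9.92, 7.19, 1.92 and 2.66 CPM in the members against 75.1, 70.2, 34.9 and 46.1 CPM in the middle group and fell by 3.40 ± 0.25 on the log2 scale (edgeR adjusted p = 7.15e-07). RAB25, a GTPase of apical recycling, was at 9.19, 11.6, 6.14 and 5.31 CPM against 95.9, 123, 57.4 and 54.7 CPM (-3.34 ± 0.20). The 4 plates lay close together for RAB25, with log2 ratios of -3.31, -3.36, -3.12 and -3.25. HSD11B2, which inactivates cortisol, was at 44.8, 53.5, 16.9 and 14.5 CPM against 602, 716, 116 and 94.2 CPM (-3.34 ± 0.32), and ALDH1A3, which makes retinoic acid, at 16.5, 10.8, 9.98 and 8.27 CPM against 196, 185, 46.4 and 50.2 CPM (-3.23 ± 0.32). The serine proteases PRSS8 (-3.32 ± 0.27) and KLK8 (-3.32 ± 0.40) fell to 1.18–3.31 CPM and 1.18–8.79 CPM. KDF1, a factor of keratinocyte differentiation (-3.28 ± 0.36), the transcription factor SOX15 (-3.25 ± 0.29) and MACC1, a regulator of the receptor MET (-3.13 ± 0.27), completed the 12 falls, each at under 3 CPM in the members of every plate.

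The promoters of 4 of these falling genes hold the E-box CAGGTG, the sequence that SNAI and ZEB factors bind, and are shown because ZEB1 and ZEB2 were among the higher genes and SNAI2 was a gene of the rule. The 250 bases before the start of each gene are given 5′ to 3′ on the gene's strand, from RefSeq on GRCh38.p14, with CAGGTG or its reverse complement CACCTG in capitals. They lie at chr1:153616326-153616575 (minus strand) for S100A14, chr1:156060910-156061159 (plus) for RAB25, chr1:26960469-26960718 (minus) for KDF1, chr7:20217385-20217634 (minus) for MACC1 and chr10:31318167-31318416 (plus) for ZEB1, which is the repressor itself.
S100A14: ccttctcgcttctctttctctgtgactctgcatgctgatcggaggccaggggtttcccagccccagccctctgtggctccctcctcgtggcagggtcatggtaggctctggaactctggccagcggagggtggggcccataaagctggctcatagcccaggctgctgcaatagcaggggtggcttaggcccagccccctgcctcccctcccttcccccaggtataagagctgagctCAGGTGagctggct
RAB25: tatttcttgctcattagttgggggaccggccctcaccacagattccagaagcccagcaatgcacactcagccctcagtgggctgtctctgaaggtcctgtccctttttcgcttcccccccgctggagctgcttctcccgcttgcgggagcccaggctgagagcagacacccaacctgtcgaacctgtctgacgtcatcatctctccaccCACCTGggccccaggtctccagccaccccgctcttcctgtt
KDF1: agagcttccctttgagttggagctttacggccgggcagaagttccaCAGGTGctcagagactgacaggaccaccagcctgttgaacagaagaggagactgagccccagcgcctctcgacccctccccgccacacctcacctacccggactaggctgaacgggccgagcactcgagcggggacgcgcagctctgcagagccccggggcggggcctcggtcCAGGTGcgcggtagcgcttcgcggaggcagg
MACC1: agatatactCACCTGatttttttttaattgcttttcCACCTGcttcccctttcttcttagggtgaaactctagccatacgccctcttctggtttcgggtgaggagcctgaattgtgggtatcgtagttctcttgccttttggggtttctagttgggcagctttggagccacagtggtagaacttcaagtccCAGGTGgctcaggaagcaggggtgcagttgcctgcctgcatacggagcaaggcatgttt
ZEB1: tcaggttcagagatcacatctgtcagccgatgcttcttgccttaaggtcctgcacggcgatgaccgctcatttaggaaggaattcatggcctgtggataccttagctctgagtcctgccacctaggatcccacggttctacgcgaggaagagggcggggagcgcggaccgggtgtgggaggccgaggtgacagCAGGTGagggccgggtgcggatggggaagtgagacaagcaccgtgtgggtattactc
S100A14, RAB25 and ZEB1 hold the sequence 1 time in this stretch, KDF1 2 times and MACC1 3 times. ALDH1A3, also among the falls, holds none there, and the rising genes OLFML2A and SCG5 hold it 1 time each. Whether SNAI or ZEB factors act at these sites was not tested. In windows of 250 bases before to 50 after the start, an entry was used for 5 of the 12 falling and 9 of the 11 rising genes named here. Genes of 1 chromosome were left out of this count, so the table can hold more. These are too few of the falling genes for a comparison of shares. The sequence is common: 20.6% of all 27305 windows hold it, and 17.8% of the 8635 windows matched to tested genes. The AP-1 sequence TGANTCA was found in the window of POSTN and the TEAD sequence GGAATG in that of ZEB1, against 7.76% and 14.05% of all windows. Among genes lower by 0.5 or more on the log2 scale, only 606 of 824 (73.5%) had an entry, under the 80% required for such a comparison, so a comparison of motif shares for the whole set is void and none is given.

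Gene lists were then read by the number of their tested members past the threshold, against the background of 10.1% higher and 10.4% lower, and by the median log2 fold change against -0.01 over all tested genes. Of the published EMT lists, from which the 10 rule genes were taken and left out, 41 of 50 tested epithelial genes were lower and 0 higher (median -1.70), and 31 of 49 tested mesenchymal genes were higher and 2 lower (median 0.79). These lists are not independent of the rule. The 2 mesenchymal genes that fell were PTGDS (-0.87), a prostaglandin synthase, and CYP1B1 (-0.86), a xenobiotic-metabolizing enzyme.

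**Figure D3:**
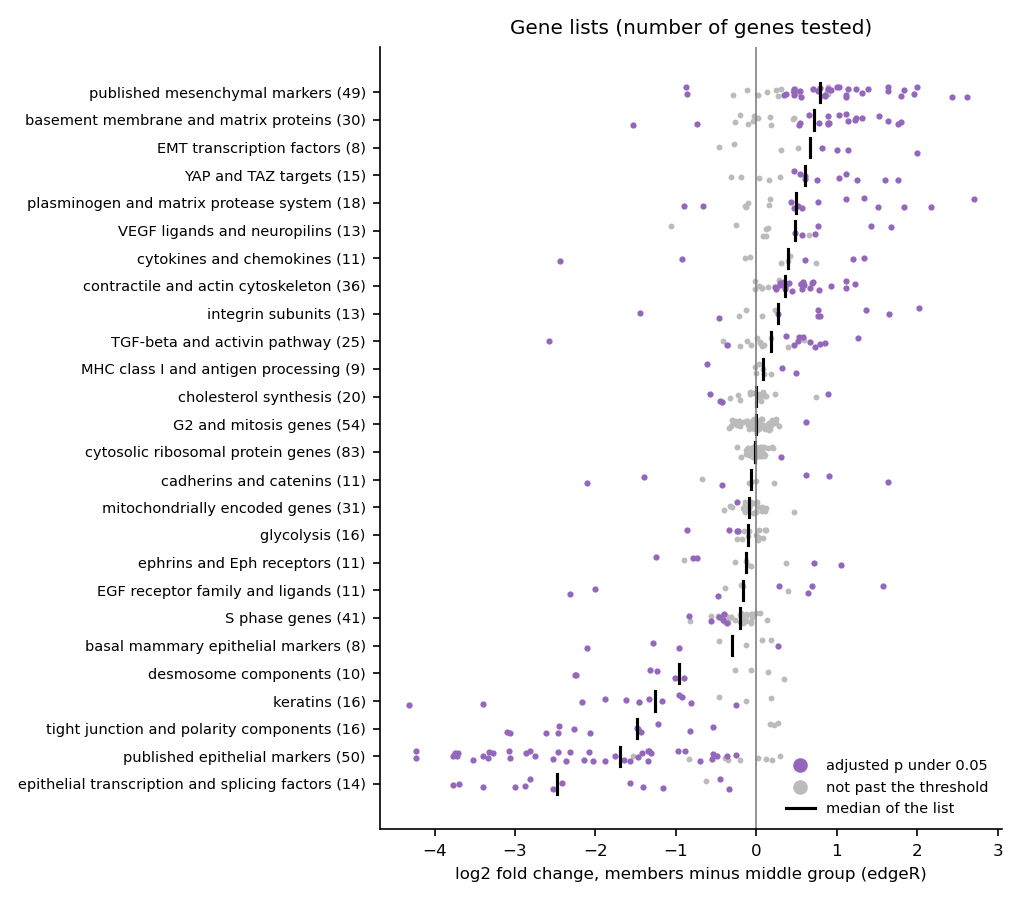
Log2 fold change of members minus middle group (x axis) for each tested gene of the lists with at least 8 tested genes (y axis, number tested in brackets). Purple points passed the threshold, grey points did not, and black bars are medians. The list of epithelial transcription and splicing factors has the lowest median (-2.48), and ribosomal, mitochondrial and G2 and mitosis genes lie close to 0.

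Among EMT transcription factors, 4 of 8 tested were higher and 0 lower. Besides ZEB1, these were its relative ZEB2 (4.75–9.59 CPM in the middle group, 12.7–19.8 CPM in the members, log2 fold change 1.01 ± 0.21), the progenitor factor SOX4 (1.14 ± 0.15) and TWIST2 (14.4–35.8 CPM, 33.4–45.8 CPM, 0.82 ± 0.16). SNAI1 (-0.46, edgeR adjusted p = 0.423) and TWIST1 (0.30, 0.104) did not pass. PRRX1, a homeobox factor of mesenchyme, was too rare to test: 14 UMIs in 13 of 287 members were counted, 2, 2, 5 and 5 by plate, and none in the 571 cells of the middle group or the 288 of the lowest group. A count of 0 in 571 pooled cells allows a share of up to 0.525% of cells with a UMI (3 divided by 571). This bound covers counting error only, not the spread between plates. FOXC2 was also rare, with 64 UMIs in the members, 36 in the middle group and 11 in the lowest group. DCN, a matrix proteoglycan of the stromal list, had 63 UMIs in 8 members against 1 in the middle group, and 45 of the 63 were in 1 cell of high-resolution replicate 2. PRRX1, FOXC2 and DCN were singled out after their values were seen.

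Epithelial transcription and splicing factors fell almost without exception, 13 of 14 tested, with a median of -2.48. GRHL2, which keeps CDH1 active, fell from 2.30–8.59 CPM to 0–0.768 CPM, and the repressor of mesenchymal genes OVOL1 from 3.01–20.4 CPM to 0.367–0.886 CPM. GRHL1 (-3.00 ± 0.49) and ESRP1 fell as well. The factor that did not pass was GATA3 (-0.62, edgeR adjusted p = 0.0653), a luminal regulator. The other 2 of the 16 listed genes were not tested.

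Of 30 tested matrix genes, 18 were higher and 2 lower, with a median of 0.72. The microfibril protein FBN1 was at 70.5, 87.1, 126 and 104 CPM in the members against 14.2, 11.7, 60.3 and 38.0 CPM (1.80 ± 0.21). LTBP1, which anchors latent TGF-beta (1.77 ± 0.25), the proteoglycan VCAN (1.64 ± 0.25) and the basement membrane chains COL4A1 (1.23 ± 0.19) and LAMC1 (0.65 ± 0.11) and the short-chain collagen COL8A1 (0.78 ± 0.22) rose too. The 2 that fell anchor epithelium to its basement membrane, the hemidesmosome collagen COL17A1 (12.5, 4.39, 6.53 and 10.3 CPM against 30.2, 29.9, 21.3 and 19.1 CPM, -1.53 ± 0.22) and the laminin chain LAMA3 (-0.74 ± 0.23). LAMA3 was lower in 3 of 4 plates and was at 152, 80.3, 93.7 and 107 CPM against 135, 91.7, 235 and 322 CPM.

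In the plasminogen and matrix protease system, 11 of 18 tested were higher and 2 lower. Besides SERPINE2, the gelatinase MMP2 rose from 0.593–11.2 CPM to 9.92–20.4 CPM, the metalloprotease inhibitor TIMP1 from 443–1021 CPM to 1485–1873 CPM and the activator PLAT from 0.593–20.0 CPM to 9.19–28.8 CPM. The activator PLAU (0.17, edgeR adjusted p = 0.636) and its receptor PLAUR (-0.13, 0.508) did not pass. The matrix metalloproteases MMP7 (-0.90 ± 0.26) and MMP28 (-0.66 ± 0.12) fell.

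Of 13 tested integrin subunits, 7 were higher and 2 lower. ITGA5, the fibronectin receptor chain, was at 203, 239.6, 342 and 324 CPM in the members against 39.9, 42.9, 164 and 157 CPM in the middle group, and the groups did not overlap (1.66 ± 0.21, edgeR adjusted p = 6.94e-05). The collagen receptor chain ITGA10 (2.03 ± 0.34) and ITGB5 (1.37 ± 0.19) rose, and the epithelial subunit ITGB6 fell from 25.8–52.2 CPM to 10.6–17.3 CPM (-1.45 ± 0.14). ITGB4, which binds laminin in hemidesmosomes, rose slightly (0.27 ± 0.09), and ITGB2, mainly known from leukocytes, fell (-0.47 ± 0.14).

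Of 36 tested contractile and actin genes, 26 were higher and 0 lower, with small changes (median 0.36). The largest were in TAGLN (17.3, 25.6, 41.1 and 28.3 CPM against 9.39, 14.04, 19.1 and 6.92 CPM, 1.23 ± 0.24), the actin crosslinker FLNA (1.12 ± 0.15), the kinase MYLK (1.12 ± 0.25) and the myosin light chain MYL9 (0.93 ± 0.20). The smooth muscle actin ACTA2 did not pass (0.36, edgeR adjusted p = 0.209).

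Tight junction and desmosome genes were mainly lower. Of 16 tested tight junction and polarity genes, 13 were lower and 0 higher (median -1.48). OCLN (occludin) was at 2.57, 2.80, 1.92 and 1.18 CPM in the members against 22.6, 27.1, 11.5 and 11.7 CPM in the middle group, and the polarity genes CRB3 and LLGL2 at 0–1.18 CPM against 3.12–8.30 CPM and 3.67–7.09 CPM against 22.2–59.1 CPM. The scaffold TJP1 did not pass (0.22, edgeR adjusted p = 0.224). Of 10 tested desmosome genes, 6 were lower and 0 higher, led by the desmosomal cadherins DSG3 (30.1, 30.8, 10.8 and 15.4 CPM against 164, 148, 58.7 and 57.5 CPM, -2.25 ± 0.15) and DSC2 (-2.25 ± 0.25) and the plaque protein PKP3 (-1.32 ± 0.15), while DSG2 did not pass (-0.26, edgeR adjusted p = 0.0751). Cadherins and catenins were mixed, with 3 of 11 higher and 3 lower. P-cadherin (CDH3) fell from 21.5–39.0 CPM to 5.38–9.55 CPM, and N-cadherin (CDH2) rose from 0.395–2.13 CPM to 3.31–5.38 CPM, a level at which 40 of 287 members had a UMI. CTNNB1 (beta-catenin) rose by 0.62 ± 0.13 on the log2 scale.

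Of 16 tested keratins, 12 were lower and 0 higher (median -1.25). KRT16 (-2.16 ± 0.15), a partner of keratin 6, and the simple-epithelium keratin KRT19 (-1.89 ± 0.50) fell. KRT5 fell by less, by 0.96 ± 0.15, and its level in members of 1158, 1216, 1234 and 1278 CPM varied little between plates. KRT14 (-0.46, edgeR adjusted p = 0.456) and KRT17 (-0.13, 0.524) did not pass. Of 8 tested basal mammary markers, 1 was higher (ITGB4) and 3 lower (CDH3, SFN and KRT5).

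Among signalling genes, 10 of 25 tested genes of the TGF-beta and activin pathway were higher and 2 lower. The ligand TGFB1 was at 10.3, 15.2, 19.6 and 22.4 CPM in the members against 5.99, 5.14, 7.80 and 8.82 CPM in the middle group (1.27 ± 0.21), and the transducer SMAD3 (0.85 ± 0.12) and the feedback inhibitor SMAD7 (0.79 ± 0.24) rose. The activin subunit INHBB fell from 3.01–20.4 CPM to 0.591–2.94 CPM, and ID1, a target of BMP signalling, fell by 0.37 ± 0.12. The receptors TGFBR1 (0.18, edgeR adjusted p = 0.499) and TGFBR2 (0.04, 0.776) did not pass.

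In the EGF receptor family, 4 of 11 tested genes were higher and 3 lower. The ligand NRG1 rose (22.8, 16.8, 8.06 and 11.5 CPM against 4.39, 1.38, 6.38 and 6.92 CPM, 1.58 ± 0.37), its receptor ERBB3 fell (3.31, 4.39, 3.84 and 1.77 CPM against 21.4, 28.5, 10.1 and 8.69 CPM, -2.31 ± 0.26), and the ligand EPGN fell (-2.00 ± 0.16). CD44, a hyaluronan receptor, rose by 0.70 ± 0.11, while EGFR (-0.19, edgeR adjusted p = 0.247) and HBEGF (-0.16, 0.465) did not pass. Of 13 tested VEGF, neuropilin, plexin and semaphorin genes, 6 were higher and 0 lower. The receptor NRP1 was at 97.0, 99.8, 95.6 and 103 CPM in the members against 21.6, 17.004, 47.7 and 42.7 CPM (1.68 ± 0.19, edgeR adjusted p = 2.75e-05), and the ligand VEGFC at 79.7, 71.1, 87.9 and 92.4 CPM against 26.96, 17.8, 39.5 and 40.0 CPM (1.43 ± 0.20). VEGFA did not pass (-0.25, adjusted p = 0.334). Ephrins and Eph receptors were mixed, 2 of 11 higher and 3 lower, with the receptor EPHB2 at 1.06 ± 0.26 and the ligand EFNA3 at -1.24 ± 0.24. EPHB4 (-0.10, adjusted p = 0.616) and EFNB2 (0.36, 0.0577) did not pass.

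Of 15 tested genes of the YAP and TAZ list, 10 were higher and 0 lower. The list holds targets and also YAP1, WWTR1, TEAD1 and TEAD4. NT5E, the ecto-nucleotidase CD73, was at 429.9, 491, 705 and 629.5 CPM against 73.3, 74.5, 373 and 324 CPM (1.76 ± 0.25), the receptor tyrosine kinase AXL at 118, 105, 177 and 173 CPM against 16.8, 21.2, 95.4 and 92.1 CPM (1.60 ± 0.24), and DLC1 (1.25 ± 0.21) and the matricellular genes CTGF (1.12 ± 0.30) and CYR61 (1.03 ± 0.20) rose too. Of 4 tested metallothioneins, which buffer zinc and copper, MT2A (4206, 4556, 5199 and 5233 CPM against 1386, 1263, 3765 and 3338 CPM, 1.17 ± 0.19) and MT1E (1.11 ± 0.17) rose. These genes are near-identical copies, so reads may have been split between them. Cytokines were mixed, 3 of 11 higher and 2 lower: IL6 (1.34 ± 0.35) and CXCL8 (1.21 ± 0.30) rose, and IL1RN, the interleukin-1 receptor antagonist, fell (-2.44 ± 0.25).

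In other lists the number of genes past the threshold was small, but the shares differed. Against the background of 10.1% higher, 22.2% of MHC class I genes were higher. Against 10.4% lower, 25% of glycolysis, 15% of cholesterol synthesis and 14.6% of S phase genes were lower. Ribosomal and G2 and mitosis genes lay below the background. Of 9 tested genes of MHC class I presentation, 2 were higher and 1 lower, among them B2M, the light chain of class I molecules (0.32 ± 0.08), and the peptide transporter TAP2 (-0.61 ± 0.18). Of 16 glycolysis genes, 0 were higher and 4 lower, with HK2 (-0.87 ± 0.27) the largest fall, and of 20 genes of cholesterol and fatty acid synthesis, 1 was higher (the desaturase FADS1, 0.89 ± 0.13) and 3 lower. Of 83 ribosomal protein genes 1 was higher and 0 lower, and of 54 G2 and mitosis genes 1 was higher and 0 lower. Of 41 S phase genes, 6 were lower and 0 higher (median -0.20). In sums over cells, fewer cells that express a gene and less RNA of it per cell cannot be told apart.

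Depth, RNA quality and the cell cycle were compared over plates. The median mitochondrial share of a cell was 25.7%, 28.6%, 28.0% and 25.5% in the members against 29.6%, 31.4%, 29.5% and 28.1% in the middle group, a mean difference of -2.69 percentage points ± 0.973 (SD, n = 4 plates). It was lower in all 4 plates, and the two-sided exact sign-flip permutation test gave p = 0.125, the smallest that 4 plates allow. Its part in the lists above was not tested. With mitochondrial rows left out of the normalization and of the sums, and the members chosen anew, 1003 genes were higher and 1148 lower. Median transcripts per cell were 30436, 32834, 35077 and 41205 in the members against 28431, 34087, 35912 and 45381 in the middle group, higher in 1 of 4 plates (exact p = 0.5). Cells with S and G2/M scores both at or below 0, called non-cycling here, made up 53.4%, 66.2%, 52.1% and 43.8% of the members, 65.5%, 65.9%, 47.6% and 47.3% of the middle group and 60.3% to 87.7% of the lowest group. The exact binomial 95% intervals of the members' shares, which cover counting error only, ran from 32.2% to 77.2%, and they overlapped those of the middle group in every plate. Among non-cycling cells alone, with the members chosen anew, 1007 genes were higher and 980 lower. The share of members among passed wells ranged from 9.09% to 52.5% over blocks of 48 consecutive wells, and no region was read from this.

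The next comparison asked whether the step into the members differed in size from the step below it. The log2 difference of members and middle group minus that of middle group and lowest group was past the threshold in 40 of 10622 genes, 6 positive (0.0565%) and 34 negative (0.32%), by edgeR's quasi-likelihood test. At an unadjusted p under 0.05 there were 1624 genes. The 2 steps of the rule's value were unequal and in opposite order in the 2 experiments: 0.766, 0.663, 1.73 and 1.43 from the lowest group to the middle group, against 1.59, 1.87, 0.886 and 1.12 into the members. The contrast was not scaled by these gaps, so a gene that changes evenly with the rule's value can also differ between the steps. The count depended on the plates: it was 8 without high-resolution replicate 2, 13 and 23 without low-resolution replicates 1 and 2, and 95 without high-resolution replicate 1.

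Most of the negative genes named here fell more in the last step than in the first. KRT6B was at 33.4, 59.8, 141 and 138.1 CPM in the lowest group, 58.9, 55.2, 79.4 and 102 CPM in the middle group and 3.31, 3.99, 3.84 and 4.13 CPM in the members, so that most of its fall lay in the last step (difference of steps -4.09 ± 0.40, edgeR adjusted p = 0.000175). S100A14 was at 523–639 CPM in the lowest group and 224–478 CPM in the middle group before its fall to 19.2–39.1 CPM (-2.80 ± 0.27). The basement membrane protein LAD1 (-2.64 ± 0.26) and ESRP1 (-2.55 ± 0.35) behaved likewise. ZBED6CL, a gene of little-known function, peaked in the middle group at 47.9, 59.3, 38.6 and 34.2 CPM, against 28.0, 19.7, 23.2 and 23.7 CPM in the lowest group and 22.8, 13.6, 11.9 and 14.2 CPM in the members (-2.41 ± 0.27, edgeR adjusted p = 0.000805). SAMSN1, an adaptor protein of the published mesenchymal list, appeared at the first step, from 0–2.12 CPM to 11.5–25.2 CPM, and was at 9.60–24.6 CPM in the members, with no call for the last step (log2 fold change 0.14, adjusted p = 0.773) (-4.11 ± 0.65). ESRP1 and SAMSN1 missed the threshold without high-resolution replicate 2 (adjusted p = 0.0658 and 0.0785).

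**Figure D4:**
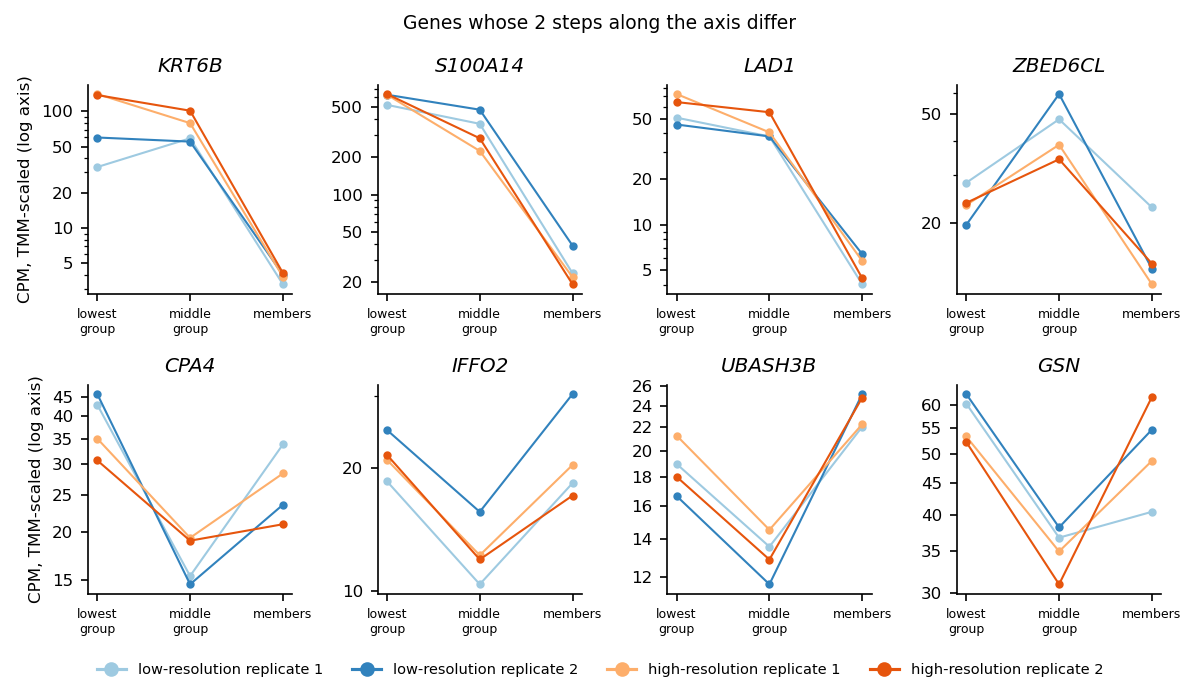
TMM-scaled CPM (y axis, log scale) in the lowest group, middle group and members (x axis) of each plate for 8 of the genes named for this contrast. KRT6B, S100A14 and LAD1 fall mainly in the last step, ZBED6CL peaks in the middle group, and CPA4, IFFO2, UBASH3B and GSN are lowest there.

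The 6 positive genes were lowest in the middle group and shared by both ends. The metallocarboxypeptidase CPA4 was at 42.9, 45.7, 35.02 and 30.7 CPM, 15.4, 14.6, 19.3 and 19.0 CPM and 33.8, 23.6, 28.4 and 21.0 CPM in the lowest group, middle group and members (1.75 ± 0.29, edgeR adjusted p = 0.0179). The actin-severing protein GSN was at 60.2, 62.4, 53.3 and 52.3 CPM, 36.7, 38.2, 34.9 and 30.9 CPM and 40.4, 54.7, 48.8 and 61.7 CPM (1.25 ± 0.22, adjusted p = 0.0197). IFFO2 (1.54 ± 0.23), UBASH3B, a phosphatase that acts on receptor kinases (1.35 ± 0.23), the small heat shock protein CRYAB (1.53 ± 0.28) and CTTNBP2NL (0.96 ± 0.18) were the others. The middle group was below both ends in all 4 plates for each of the 6 except CRYAB, which was lower in the members of low-resolution replicate 2. None of the 6 passed with cells thinned to 10000 UMIs (adjusted p of 0.0723 to 0.535), and each missed the threshold without at least 2 of the plates in turn.

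The member-to-middle difference was also compared between the 2 experiments. It differed in 313 of 10622 genes, more positive in the high-resolution plates in 118 (1.11%) and more negative in 195 (1.84%), by edgeR's test of the interaction. All of the 10 genes named for it except CFB rose more or fell more in the low-resolution plates, where the gap in the rule's value was also larger (1.59 and 1.87 against 0.886 and 1.12). The resolution and this gap cannot be told apart. POSTN had log2 ratios of 5.15, 5.95, 1.28 and 3.12, an interaction of -3.71 ± 0.56 (edgeR adjusted p = 0.000391), with its middle group at 2.40, 1.98, 129 and 36.1 CPM. The interaction was -2.24 ± 0.20 for SERPINE2, -2.10 ± 0.23 for AKAP12 and -2.54 ± 0.66 for MMP2. CFB, complement factor B, was different: it was at 23.9, 31.5, 4.22 and 3.25 CPM in the members against 22.2, 14.6, 14.2 and 10.4 CPM in the middle group, above it in the low-resolution plates and below it in the high-resolution plates (-2.29 ± 0.42, edgeR adjusted p = 0.00269).

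On the positive side, the proton pump subunit ATP6V1B1 (1.99 ± 0.27), the kallikrein KLK7 (1.78 ± 0.16) and the secreted glycoprotein AZGP1 (1.69 ± 0.17) were already low in the middle group of the high-resolution plates. KLK7 was at 148, 95.4, 46.8 and 46.9 CPM in the members, 876, 828, 103 and 90.9 CPM in the middle group and 4031, 3326, 1622 and 1788 CPM in the lowest group. The ubiquitin ligase RNF144B (1.94 ± 0.45) and the vasoconstrictor endothelin-1, EDN1 (1.84 ± 0.42), completed the set, and EDN1 was at 18.4, 8.79, 29.2 and 20.1 CPM in the members against 80.9, 26.1, 35.1 and 18.6 CPM. With the members set against the lowest group instead, an alternative chosen after seeing the data, the interactions of AKAP12, ATP6V1B1, KLK7 and AZGP1 changed sign, and those of POSTN (-0.44, adjusted p = 0.901), MMP2 (-0.29, 0.94), CFB (-1.15, 0.377) and SERPINE2 (-0.95, 0.0973) no longer passed. With cells thinned to 10000 UMIs, AKAP12 (adjusted p = 0.16), ATP6V1B1 (0.0619), RNF144B (0.442) and EDN1 (0.342) lost their call, and without the plate as a block AKAP12 (0.0916), RNF144B (0.0926), EDN1 (0.48) and MMP2 (0.144) did. The count was 143 without low-resolution replicate 2, 67 without high-resolution replicate 1 and 98 without high-resolution replicate 2. RNF144B lost its call without any 1 of the 4 plates, EDN1 without low-resolution replicate 1, MMP2 without low-resolution replicate 2 or high-resolution replicate 1, and CFB without either high-resolution plate.

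Finally, the members of the high-resolution plates were compared with those of the low-resolution plates. The largest differences were higher NR4A1, LIF and EGR1 and lower RARRES1, CFB and S100A8, of which NR4A1 (adjusted p = 0.058) and S100A8 (0.248) did not pass by DESeq2, nor did PDK4 (0.642). Of 9992 genes tested, 106 (1.06%) were higher and 163 (1.63%) lower in the high-resolution members. NR4A1, an immediate-early nuclear receptor, was at 11.8, 30.8, 87.5 and 162 CPM in the members of the 4 plates (2.57 ± 0.32, edgeR adjusted p = 0.000184), and its level in the middle group was 8.39, 20.0, 55.8 and 89.97 CPM. The immediate-early factor EGR1 was at 58.8, 89.9, 394 and 231 CPM (2.07 ± 0.23), with 173, 157, 292 and 244 CPM in the middle group. The cytokine LIF was at 18.4, 39.9, 126 and 151 CPM (2.25 ± 0.24). NEDD9, a scaffold of focal adhesions (1.68 ± 0.22), and LOC100505817, an uncharacterized locus (1.73 ± 0.20), were higher too. For all 5 genes both high-resolution plates lay above both low-resolution plates, in the middle group as in the members.

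**Figure D5:**
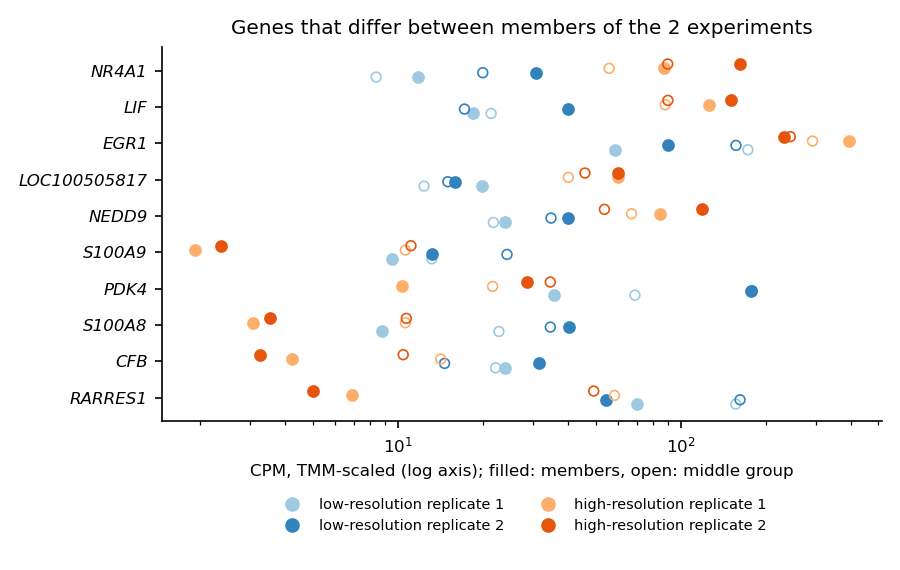
TMM-scaled CPM (x axis, log scale) of the 10 genes named for the comparison of members between experiments (y axis), filled for the members and open for the middle group of each plate. The 2 high-resolution members lie above the 2 low-resolution members for the upper 5 genes and below them for the lower 5.

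Of the 15 tested genes of the YAP and TAZ list, 4 were higher in the high-resolution members and 0 lower, among them CYR61 (81.6, 91.1, 270.3 and 194 CPM, 1.42 ± 0.17) and CTGF (151, 355, 640.1 and 511 CPM, 1.18 ± 0.25). Of 11 tested cytokines, 3 were higher and 3 lower, with IL6 at 1.84, 1.60, 10.4 and 8.56 CPM and CXCL8 at 20.2, 61.5, 105 and 240.3 CPM among the former. Of 54 G2 and mitosis genes, 8 were higher and 0 lower. RARRES1, a retinoic acid response gene, was at 70.2, 54.3, 6.91 and 5.02 CPM in the members (-3.41 ± 0.25, edgeR adjusted p = 3.18e-06), the largest fall by the naming rule. CFB (-2.90 ± 0.32), the calprotectin chains S100A8 (8.82, 40.3, 3.07 and 3.54 CPM, -2.85 ± 0.57) and S100A9 (9.55, 13.2, 1.92 and 2.36 CPM, -2.37 ± 0.43), and PDK4, a kinase that inhibits pyruvate dehydrogenase (35.6, 177, 10.4 and 28.6 CPM, -2.38 ± 0.51), followed. S100A8 was uneven between the low-resolution plates, and its call was lost without low-resolution replicate 2 (log2 fold change -1.40, adjusted p = 0.134). Of 14 tested keratins 1 was higher and 3 were lower, with KRT15 at 179, 113, 31.5 and 42.2 CPM (-1.98 ± 0.21). The experiments also differed in where the members lay on the rule's value (1.00 and 1.14 against 1.52 and 1.55), in the bands sampled and in part in the flow cell, and these cannot be told apart. The count rose to 465 and 447 without low-resolution replicates 1 and 2. With 1 threshold for all plates, chosen after seeing the data, 142 genes were called, of which 99 were among the 269.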

How the data were processed

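Single MCF10A cells of 4 patches were sequenced by SORT-seq, 384 wells per patch. The authors deposited expected counts, that is, transcripts per gene and well corrected for repeated draws among 4096 possible UMIs, and every value returned to a whole number of UMIs when this correction was inverted. The submitters' processing notes name STAR 2.7.3a, Seurat 4 and hg38.

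Cells with 2000 to 9000 nonzero rows and under 40% mitochondrial counts were kept, and no doublet caller was run. Counts were summed per plate and state, rounded and fitted with edgeR 4.0.16 in R 4.3.3 (TMM, default filter on low counts, quasi-likelihood test, plate as a block). The sums held 2455373 to 7241216 transcripts. The members of high- and low-resolution plates were compared in a fit without a block. The block rests on the plate, whose members and middle group deviated together. Genes were named if they passed the threshold, had a UMI in at least 20% of members or of the middle group in every plate and, for the comparison of members with the middle group, had 1 sign in all plates. The largest 12 rises and 12 falls, 6 per direction for the step contrast and 5 per direction for the comparisons between experiments were taken, with the largest changes of each list. Of these, 2 genes are not reported here. The script was tested on simulated data. DESeq2 1.42.0 was an alternative. The members, lists and tests were chosen with earlier results of these data known. The plates were called biological replicates, and p-values measure the spread between them.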

Additional observations from a re-analysis of the deposited data

Results flagged for a closer look

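The member-to-middle difference of 41 genes named above differed between the high- and low-resolution plates by edgeR's interaction test at an adjusted p under 0.05, and the values below are log2 differences, high minus low resolution. It was more negative in the high-resolution plates for POSTN (-3.71), MMP2 (-2.54), CFB (-2.29), SERPINE2 (-2.24), NRG1 (-2.22), ITGA10 (-2.20), AKAP12 (-2.10), FAP (-2.00), KRT14 (-1.88), SRGN (-1.82) and RARRES1 (-1.82). The same held for NT5E (-1.70), AXL (-1.66), VCAN (-1.61), LAMA3 (-1.49), SCG5 (-1.44), COL8A1 (-1.39), ITGA5 (-1.36), SAMSN1 (-1.35) and FBN1 (-1.35), and for ITGB5 (-1.26), NRP1 (-1.21), MT2A (-1.17), SPOCK1 (-1.11), DLC1 (-1.03), MT1E (-0.94), FLNA (-0.81), TIMP1 (-0.69), FADS1 (-0.64) and CD44 (-0.62).

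It was more positive in the high-resolution plates for HSD11B2 (1.00), VEGFA (1.04), DSC2 (1.23), EGR1 (1.35), ALDH1A3 (1.38), LLGL2 (1.62), AZGP1 (1.69), KLK7 (1.78), EDN1 (1.84), RNF144B (1.94) and ATP6V1B1 (1.99). The gap in the value that chose the members was 1.59, 1.87, 0.886 and 1.12 (low-resolution plates first), and its part in these differences cannot be told apart from that of the resolution. With 2 plates per experiment, no test for a single plate that stands apart was possible.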

How the results depend on the processing

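Leaving out 1 plate gave 623 to 1034 genes higher and 661 to 954 lower in the members, 8 to 95 for the step contrast, 201 to 465 between the members of the 2 experiments and, for the interaction, 0.629% to 2.53% of genes tested, against 2.95% with all plates. A plate left alone in its experiment was assumed to vary like the others. With cells thinned to 10000 UMIs and the members chosen anew, 463 genes were higher, 569 lower and 1.58% passed for the interaction. Without the plate as a replicate block, these were 372, 474 and 0.461%, and POSTN lost its call (adjusted p = 0.0992). With the epithelial genes of the rule alone, 689 genes were higher, and OLFML2A (adjusted p = 0.0579) and SCG5 (0.0515) lost their call. DESeq2 gave 68 genes for the step contrast, 1.28% for the interaction and 112 between experiments, and without a filter on low counts these were 607, 2.58% and 547. With the replicate number as a block, 508 genes differed between the members of the experiments, but the numbers only name plates, since same-numbered plates did not deviate together (r = -0.035 over 6356 genes).

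Of alternatives chosen after seeing the data, setting the members against the lowest group gave 4.59% for the interaction, with the signs of ATP6V1B1 (-0.095), KLK7 (-0.26), AZGP1 (-0.45) and AKAP12 (0.015) turned, and 1 threshold for all plates gave 142 genes between experiments. The causes were not tested. Of 410 values of the named genes for members against the middle group, 407 kept their direction and side of the threshold, as did 72 of 96 for the step contrast, 70 of 96 for the interaction and 92 of 97 between experiments. Depth limits the rare genes most: ZEB1 rests on 184 UMIs in the members and CDH2 on 49.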
